A study of Solanum tuberosum with 8 samples.

Results

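The genes described here are those of phenylpropanoid and flavonoid metabolism in potato tubers. A gene was a member when its product name matched the enzyme words of this metabolism (phenylalanine ammonia-lyase, the cinnamate, coumarate, cinnamoyl and caffeoyl enzymes, chalcone synthase and isomerase, the flavanone, flavonoid, isoflavone and anthocyanidin enzymes) and its counts over the 8 libraries summed to at least 80. Of 32768 genes, 152 had a matching product and 110 also had enough counts. The members closest to that limit summed to 83 counts and the genes just below it to 76. All 110 members passed the filter on low counts, which left 20389 genes for testing. The members fell into 20 enzyme classes by product name.

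The data were RNA-seq counts from fully developed tubers of the diploid potato family 12-3, an F1 progeny grown in pots under a tent, harvested and left untreated. RNA of several plants was pooled into 4 bulks, each with 2 libraries, A and B. H1 held plants of high tuber starch content (TSC) with high expression of *AGPaseS-a*, H2 plants of high TSC with low *AGPaseS-a*, L1 plants of low TSC with high *AGPaseS-a*, and L2 plants of low TSC with low *AGPaseS-a*. *AGPaseS-a* encodes a subunit of ADP-glucose pyrophosphorylase, the enzyme that supplies ADP-glucose for starch synthesis. A bulk mixes genotypes, so a value is an average over its plants, and with 2 libraries per bulk p-values measure only the spread between these libraries. In such bulks, fewer cells of a type and less RNA per cell cannot be told apart.

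Phenylpropanoid metabolism starts when phenylalanine ammonia-lyase (PAL) removes ammonia from phenylalanine. The resulting cinnamate is hydroxylated by cinnamate 4-hydroxylase (C4H) and activated by 4-coumarate:CoA ligase (4CL), and the CoA ester is then used for chlorogenic acid, lignin and the phenolic part of suberin, or for flavonoids. Chalcone synthase (CHS) opens the flavonoid branch, which leads through flavanones and dihydroflavonols to flavonols, anthocyanins and flavan-3-ols. In potato tubers, chlorogenic acid is the main soluble phenolic compound, anthocyanins colour the skin and flesh of some genotypes, and suberin seals the periderm.

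The libraries held between 15293539 and 31943185 counts on genes. Members took between 0.155% (L1 A) and 0.249% (H1 B) of them. Libraries H1 A and H2 B stood apart from the other 6 on the principal component that carried 46.5% of the variance, with scores of -74.7 and -43.5 against 15.3 to 26.1. The 18 plastid genome genes summed to 417 CPM (counts scaled to a common library total) in H1 A and 256 in H2 B, against 40.8 to 70.5 in the other 6 libraries. Tuber storage parenchyma was well represented, since the 26 patatin and granule-bound starch synthase genes summed to between 16974 and 28186 CPM, whereas the 5 xylem genes summed to 2.57 to 6.74 CPM. The 27 periderm and suberin genes summed to 113 to 154 CPM in the 4 H libraries and 174 to 279 CPM in the 4 L libraries, so these sums did not overlap. The median log2FC of the 18 of them tested was -0.0041 in H/L (low-TSC over high-TSC bulks), 1 had an unadjusted p under 0.05 there and was higher in L, and none of the 27 was at 0 in all libraries. Of 22 tested storage parenchyma genes, 5 were lower and 0 higher in L by that criterion (22.7%, against 4.75% of all genes tested that were lower in L). The 32 green tissue genes summed to 65.1 to 283 CPM with overlap between the bulks. The part of these markers in the results below was not tested.

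Most members had modest counts. Their mean over the 8 libraries was at least 100 CPM for 4 members, 10 to 100 CPM for 39, 1 to 10 CPM for 55 and under 1 CPM for 12, with a median of 5.48 CPM. CPM is not corrected for gene length, so these values and the shares of a class given below are shares of reads and do not rank the genes by transcript level. Together the members summed to 2211 and 2364 CPM in H1 (libraries A and B), 2209 and 1829 in H2, 1554 and 1914 in L1, and 1905 and 1651 in L2. The sums of H1 were above both sums of L1, whereas H2 and L2 overlapped.

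**Figure D1:**
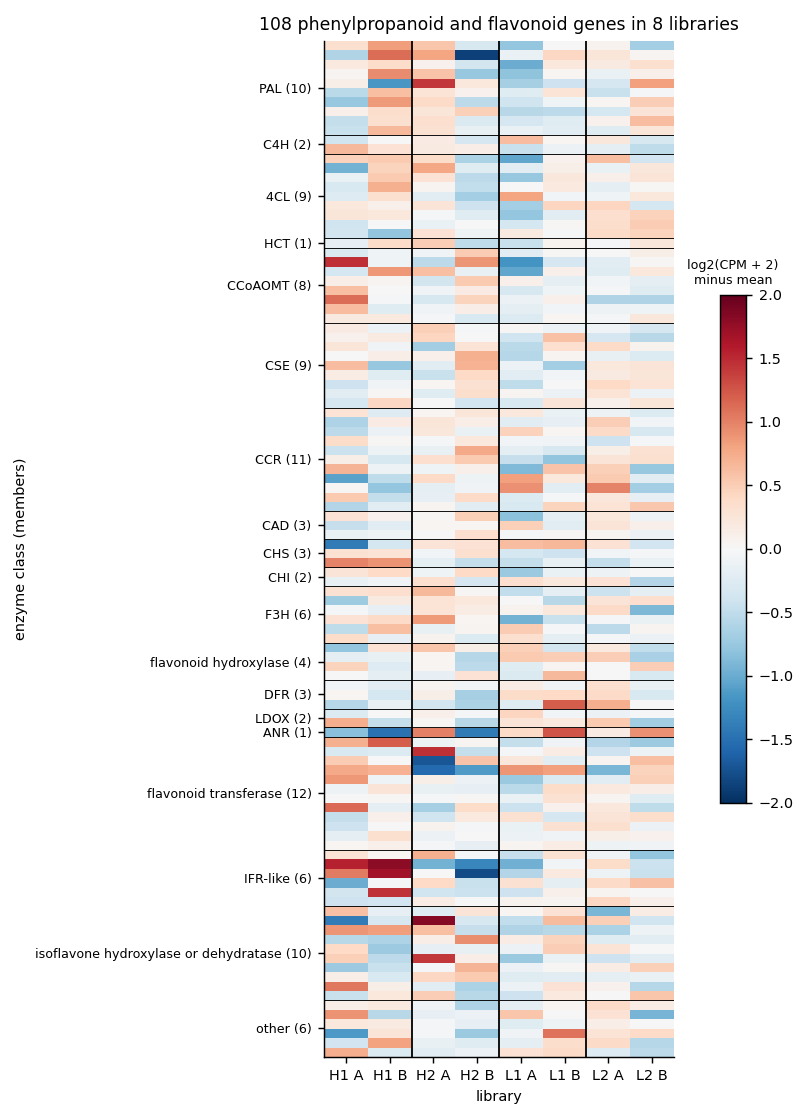
Heat map of 108 members (rows, sorted by enzyme class) in the 8 libraries (columns). Colour gives log2(CPM + 2) minus the mean of that gene over the 8 libraries, red above and blue below, limited to 2 in either direction. IRL (LOC102596717) is high in both H1 libraries, and ANR is low in H1 A, H1 B and H2 B.

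Differences were expressed as log2FC, the log2 ratio of an L bulk to its H bulk, so a positive value means a higher level in L. A gene was called at a false discovery rate (FDR, the Benjamini-Hochberg adjusted p over all 20389 genes) under 0.05 with a log2FC of 1.5 or more in either direction. With edgeR's quasi-likelihood test, 0 of 110 members were called in H1/L1, H2/L2, H/L (both L bulks against both H bulks), the interaction (the log2FC in H1/L1 minus that in H2/L2) or high/low *AGPaseS-a* (H1 and L1 against H2 and L2). Of all genes tested, the share called was 0% in each of these comparisons except high/low *AGPaseS-a*, where it was 0.0049% (1 gene). DESeq2 at the same thresholds called 1 member in H1/L1 (background 0.181% of all genes), 1 in H2/L2 (0.128%), 1 in H/L (0.324%), 1 in the interaction (0.0294%) and 2 in high/low *AGPaseS-a* (0.191%). These 6 calls fell on 3 genes, which are LOC102596717, LOC102579925 and LOC102601174. DESeq2 with shrunken fold changes (a normal prior), run on the 4 libraries of a comparison, called LOC102596717 in H1/L1 (0.116% of all genes were called) and 0 members in H2/L2 (0.0305%). What follows is therefore described by size (log2FC ± SE) and by edgeR's FDR, and no edgeR value below passed the threshold.

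In H1/L1, 13 members were lower in L1 and 5 higher at an unadjusted p under 0.05, which was 11.8% and 4.55% of the members. Of all genes tested, 3.34% were lower and 2.39% higher by the same criterion. The median log2FC was -0.19 over the members and 0.02 over all genes, and 68 of 110 members had a negative log2FC (61.8%, against 48.7% of all genes). The lowest FDR of a member was 0.789. Among the 13 were 2 flavanone 3-hydroxylase-type genes and 2 flavonoid glycosyltransferases, and PAL, C4H, 4CL, caffeoyl-CoA O-methyltransferase (CCoAOMT), chalcone synthase, chalcone isomerase (CHI), the isoflavone reductase-like genes and the isoflavone hydroxylases gave 1 each. The 5 higher members were an isoflavone reductase-like gene, the anthocyanidin reductase-like gene (ANR), a cinnamoyl-CoA reductase (CCR), chalcone synthase 2 and a 2-hydroxyisoflavanone dehydratase-like gene. L1 A carried much of this count, since without it 8 members (4 higher, 4 lower) had an unadjusted p under 0.05, all 8 of them among the 18. Leaving out L1 A moved the log2FC in H1/L1 to -0.60 for LOC102596017, -0.42 for LOC102581161, -0.50 for LOC102584603, -0.38 for LOC102602480 and -0.48 for LOC102599379, each by over 1.5 times from the value given with the gene below. Counts with libraries left out, here and below, have no share of all genes beside them. Whether a change in such a count was particular to the members was not tested. Without H1 A and H2 B, 25 members (7 higher, 18 lower) had a p under 0.05.

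H2/L2 gave 2 higher and 4 lower members at an unadjusted p under 0.05 (1.82% and 3.64%), against 1.04% and 1.32% of all genes. The higher members were IRL (LOC102596717) and the glucosyltransferase LOC102601174, and the lower ones LOC102579925 (CCoAOMT), LOC102585933 (flavanone 3-hydroxylase type), LOC102592699 (glucosyltransferase) and LOC107057656 (2-hydroxyisoflavanone dehydratase-like). The median log2FC of 0.02 was close to the 0.01 of all genes, and 53 members were negative (48.2%, against 48.7% of all genes) and 57 positive. This count was 12 without H2 A, 10 without H2 B, 2 without L2 B and 15 without both H1 A and H2 B.

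When both L bulks were set against both H bulks, 12 members were lower and 4 higher at an unadjusted p under 0.05 (10.9% and 3.64%), against 4.75% and 3.09% of all genes. The lowest FDR was 0.623. All 4 L libraries were below all 4 H libraries for 4 members (3.64%, background 2.82%) and above them for 0 members (background 3.42%). The 4 were the C4H-like LOC102605307, the cinnamoyl-CoA reductase LOC102602150, and the flavanone 3-hydroxylase-type genes LOC102585933 and LOC102590513. All but LOC102602150 had an unadjusted p under 0.05. For LOC102602150 the separation was a near tie, with H2 A and L2 B both at 19.0 CPM, and the 3.64% includes it. The 4 higher members were the CCR LOC102585033, the dihydroflavonol reductase-like LOC102604843, the glucosyltransferase LOC102601174 and the isoflavone reductase-like LOC102596062. The count of 16 was 9 without L1 A and 9 without L2 A, and 24 (6 higher, 18 lower) without both H1 A and H2 B.

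PAL, the entry enzyme, was represented by 10 members. The gene with most counts, LOC102596017, was at 286 and 409 CPM in H1, 133 and 229 in L1, 337 and 183 in H2, and 240 and 142 in L2. Both L1 libraries lay below both H1 libraries, whereas H2 and L2 overlapped. Its log2FC was -0.94 ± 0.43 (SE) in H1/L1 (FDR = 0.789) and -0.45 ± 0.43 in H2/L2 (FDR = 1.0), where leaving out H2 A turned it to 0.07. This gene took 71.8% of the CPM of its class. It lies on scaffold NW_006239101.1 of SolTub_3.0 at 219945 to 223663 on the plus strand, within a run of 4 PAL genes whose starts are within 50 kb of the next. A second run of 3 PAL genes lies on NW_006239393.1. All 10 PAL genes had a negative log2FC in H1/L1 (median -0.80), against 48.7% of all genes tested. Of the 10, LOC102596891 alone had an unadjusted p under 0.05. How reads shared by similar PAL copies were counted is uncertain, so the 10 values may not be independent.

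The spread within bulks was wide for PAL. As sums over the class, PAL stood at 364 and 564 CPM in H1, 472 and 237 in H2, 188 and 327 in L1, and 329 and 248 in L2. Of the 10 genes, 9 were lower in H1 A than in H1 B, 9 lower in H2 B than in H2 A, 9 lower in L1 A than in L1 B, and 8 lower in L2 A than in L2 B. Of all genes tested, 53.5%, 53.1%, 50.4% and 50.8% were lower in the same library of each pair. LOC107057661, for example, was at 15.9 CPM in H1 A and 56.4 in H1 B, and at 44.5 in H2 A and 5.37 in H2 B, while its 4 L libraries lay between 22.6 and 33.9. The replicates of H1 and of H2 differed more than the bulk means did for this gene, whose log2FC in H/L was -0.10 ± 0.605.

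C4H, which hydroxylates cinnamate, had 2 neighbouring members on NW_006239053.1 with different patterns. LOC102605644 is annotated as mRNA, whereas LOC102605307, named C4H-like, is annotated as misc_RNA (an RNA not marked as protein-coding). LOC102605307 (1409909 to 1413764, minus strand) was at 132 and 102 CPM in H1, 60.9 and 76.4 in L1, 94.7 and 91.3 in H2, and 73.0 and 57.7 in L2. All L libraries were below all H libraries, and the log2FC was -0.64 ± 0.18 in H/L (FDR = 0.623), with values between -0.72 and -0.54 when any 1 library was left out. LOC102605644 (1417646 to 1420805, minus strand) was at 75.8 and 101 CPM in H1, 156 and 103 in L1, 113 and 79.5 in H2, and 118 and 80.3 in L2. Its log2FC in H/L was 0.30 ± 0.24 (FDR = 0.716). Whether the 2 genes differed in their response was not tested, and how reads shared by similar copies were counted is uncertain.

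**Figure D2:**
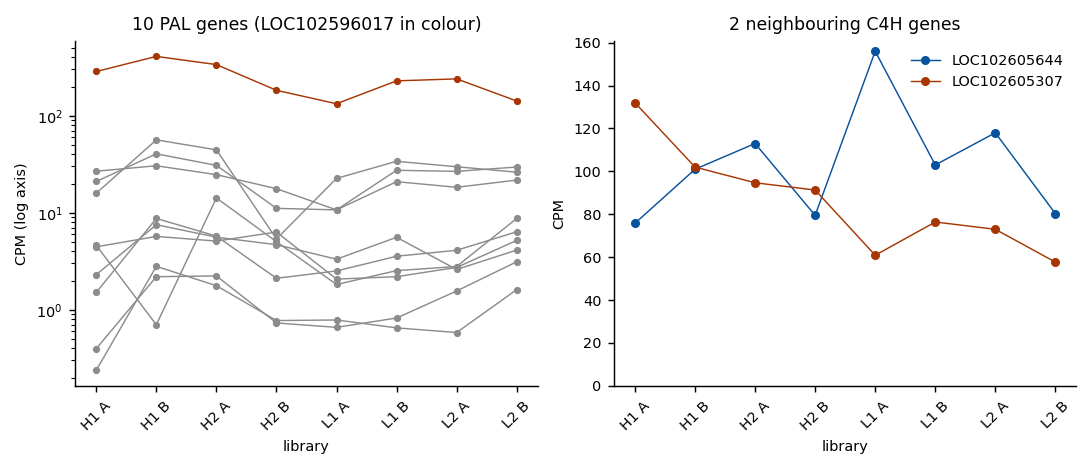
CPM per library of the 10 PAL genes (left, log axis) and of the 2 neighbouring C4H genes (right, linear axis from 0). Lines join the values of a gene and do not stand for an order. Most PAL genes are lower in H1 A, H2 B, L1 A and L2 A than in the other library of the same bulk. LOC102605307 is lower in all 4 L libraries than in the 4 H libraries.

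4CL, which makes the CoA esters, had 9 members by product name. Several are named only 4CL-like, and whether these make the esters was not tested. The member with most counts, LOC102581161 (4CL-like 5), was at 65.7 and 68.7 CPM in H1, 21.8 and 50.1 in L1, 60.9 and 29.7 in H2, and 72.2 and 35.5 in L2. Its log2FC was -0.90 ± 0.51 in H1/L1 (FDR = 0.789). The H1 and L1 libraries did not overlap, and those of H2 and L2 did. LOC102584603 (4CL 2), described here after its values were seen, was at 17.2 and 16.7 CPM in H1, 7.43 and 12.0 in L1, 13.7 and 11.7 in H2, and 18.4 and 20.2 in L2. Its log2FC was -0.80 ± 0.31 in H1/L1 and 0.60 ± 0.31 in H2/L2, and the interaction was -1.41 ± 0.44 (FDR = 1.0).

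CCoAOMT, which methylates caffeoyl-CoA, had 8 members, and LOC102595685 with most counts overlapped between the bulks of both starch comparisons, at 21.9 and 25.6 CPM in H1, 23.2 and 27.7 in L1, 25.7 and 39.5 in H2, and 27.1 and 29.5 in L2. LOC102586472 (CCoAOMT 6) was at 64.0 and 20.8 CPM in H1, 8.56 and 17.0 in L1, 14.8 and 42.2 in H2, and 18.8 and 22.4 in L2. It was highest in H1 A and H2 B, the libraries that stood apart. Its log2FC in H1/L1 was -1.73 ± 0.65 (FDR = 0.789), and -0.70 with H1 A left out together with H2 B. LOC102579925, named as a probable CCoAOMT after an Arabidopsis gene, had counts of 58 and 21 in H1, 25 and 37 in L1, 12 and 50 in H2, and 0 in both L2 libraries. Against a floor of 3 counts over both L2 libraries, its level was at least 26.3-fold lower in L2 than in H2. That bound rested on H2 B and was 9.3-fold with H2 A alone, and like LOC102586472 the gene was highest in H1 A and H2 B, at 4.6 and 2.15 CPM. DESeq2 called this gene in H2/L2 (FDR = 0.0223), and edgeR gave an FDR of 1.0.

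The shikimate hydroxycinnamoyltransferase LOC102588095, which forms the coumaroyl ester on the way to caffeate, was at 24.2 and 35.9 CPM in H1, 19.5 and 28.7 in L1, 39.4 and 18.6 in H2, and 26.4 and 32.2 in L2. Caffeoylshikimate esterase releases caffeate from its shikimate ester. Of 9 members named after this enzyme, several only as esterase-like, 0 had an unadjusted p under 0.05 in H1/L1, H2/L2 or H/L. Whether the esterase-like members have this activity was not tested. The one of the 9 with most counts, LOC102604485 (esterase-like), had a log2FC of -0.28 ± 0.20 in H/L. Among 11 members named CCR, which reduces the CoA esters to aldehydes, LOC102584718 had most counts and a log2FC of -0.16 ± 0.19 in H/L.

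Its neighbour LOC102585033 on NW_006239486.1 was at 1.19 and 2.71 CPM in H1, 9.84 and 5.78 in L1, 6.77 and 4.25 in H2, and 7.69 and 3.73 in L2, and was thus lowest in H1. Its log2FC was 1.98 ± 0.59 in H1/L1 (FDR = 0.789) and 0.05 ± 0.56 in H2/L2. LOC102591385, also named CCR, was at 9.77 and 6.68 CPM in H1, 5.89 and 4.28 in L1, 11.7 and 13.6 in H2, and 10.9 and 11.5 in L2. All libraries of low *AGPaseS-a* bulks lay above those of high *AGPaseS-a* bulks, with a log2FC of -0.88 ± 0.24 in high/low *AGPaseS-a* (FDR = 1.0). Cinnamyl alcohol dehydrogenase, the last reductase before the monolignols, was led by LOC102602480, at 149 and 130 CPM in H1, 68.0 and 107 in L1, 124 and 171 in H2, and 142 and 114 in L2. Its log2FC was -0.67 ± 0.31 in H1/L1 (FDR = 0.789) and -0.21 ± 0.31 in H2/L2.

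At the entry to the flavonoid branch, 1 of 3 chalcone synthase genes had a positive and 2 a negative log2FC in H1/L1. *CHS2* was at 2.30 and 6.86 CPM in H1, 15.4 and 16.0 in L1, 11.5 and 11.9 in H2, and 11.9 and 6.73 in L2. H1 had the lowest mean, with both libraries below both L1 libraries, and the log2FC was 1.76 ± 0.51 (FDR = 0.789), with 1.20 without H1 A and 2.77 without H1 B. *CHS1A* was at 2.22 and 2.1 CPM in H1, 0.658 and 0.548 in L1, 1.28 and 2.23 in H2, and 1.26 and 1.36 in L2, with a log2FC of -1.83 ± 0.69 (FDR = 0.789). The low counts of *CHS1A* (284 over all libraries) limit the precision of that value. The third gene, LOC102595874 (chalcone synthase J-like), had counts of 45 and 68 in H1, 0 and 15 in L1, 13 and 0 in H2, and 0 and 18 in L2. Both L1 libraries were below both H1 libraries, with a log2FC of -3.70 ± 2.09 in H1/L1 (FDR = 0.789) that varied from -9.46 to -2.70 when a library was left out. In H2/L2 the log2FC was -0.33 ± 0.49 for *CHS2* and -0.42 ± 0.66 for *CHS1A*. The interaction was 2.08 ± 0.71 for *CHS2* (FDR = 1.0) and -1.41 ± 0.95 for *CHS1A* (FDR = 1.0).

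CHI, which closes the chalcone ring, was led by LOC102599379 at 44.5 and 48.8 CPM in H1, 21.1 and 33.3 in L1, 34.5 and 49.1 in H2, and 34.2 and 36.9 in L2. The L1 libraries were below those of H1, and the log2FC was -0.78 ± 0.30 in H1/L1 (FDR = 0.789) and -0.23 ± 0.30 in H2/L2.

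Flavanone 3-hydroxylase and flavonol synthase are related dioxygenases that make dihydroflavonols and flavonols, and 2 of the 6 members of this class were lower in all L libraries. LOC102585933 (flavonol synthase/flavanone 3-hydroxylase-like) was at 34.7 and 35.8 CPM in H1, 19.3 and 24.1 in L1, 44.6 and 28.4 in H2, and 20.2 and 24.0 in L2. The log2FC was -0.70 ± 0.29 in H1/L1 (FDR = 0.789) and -0.72 ± 0.29 in H2/L2 (FDR = 1.0), and -0.71 ± 0.21 in H/L (FDR = 0.623). The value in H2/L2 was -0.35 without H2 A and -1.02 without H2 B. LOC102590513 (naringenin,2-oxoglutarate 3-dioxygenase-like) was at 6.27 and 6.86 CPM in H1, 1.5 and 2.98 in L1, 10.2 and 4.98 in H2, and 4.56 and 4.15 in L2. Its log2FC in H/L was -1.18 ± 0.35 (FDR = 0.623).

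In later steps of the anthocyanin route, the members with most counts had log2FC near 0 in H/L. Whole classes differed from this in H1/L1. The median there was 1.11 for 3 members named as dihydroflavonol reductases (0 negative) and 0.52 for 4 flavonoid hydroxylases (1 negative), with 0 at an unadjusted p under 0.05. In H2/L2 these medians were 0.72 and -0.06. The flavonoid 3'-monooxygenase-like LOC102588381, which belongs to the hydroxylases that set the colour class of anthocyanins, had a log2FC of -0.12 ± 0.37 in H/L. Its mean was 9.84 CPM in H1, 12.2 in L1, 14.7 in H2 and 10.2 in L2, so the starch comparisons differed in direction. Dihydroflavonol reductase makes leucoanthocyanidins, and LOC102604685 is named as a putative one. It was at 32.1 and 28.1 CPM in H1, 37.1 and 31.7 in L1, 34.8 and 31.9 in H2, and 42.6 and 29.7 in L2. Its log2FC in H/L was 0.15 ± 0.19. LOC102604843, named dihydroflavonol reductase-like, had few counts, 1 and 17 in H1, 20 and 152 in L1, 11 and 0 in H2, and 102 and 37 in L2. Both L2 libraries held more than both H2 libraries, and the lowest L1 library was below the highest H1 library in CPM. Leucoanthocyanidin dioxygenase forms anthocyanidins. LOC102599937 bears that name but is annotated as misc_RNA, not as mRNA. It was at 12.2 and 15.1 CPM in H1, 21.0 and 14.4 in L1, 16.3 and 14.6 in H2, and 13.8 and 14.6 in L2. Its log2FC in H/L was 0.13 ± 0.21 (FDR = 0.851).

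Glycosyltransferases that attach sugars to flavonoids and anthocyanidins, with related acyltransferases, made up 12 members. LOC102592699 (UDP-glucose flavonoid 3-O-glucosyltransferase 7-like), with 67.1% of the CPM of the class, was at 134 and 189 CPM in H1, 57.3 and 76.6 in L1, 74.9 and 84.1 in H2, and 53.0 and 48.3 in L2. It was lower in low-TSC bulks in both comparisons, with a log2FC of -1.27 ± 0.28 in H1/L1 (FDR = 0.789) and -0.65 ± 0.27 in H2/L2 (FDR = 1.0), and no overlap in either. In H/L the log2FC was -0.96 ± 0.19 (FDR = 0.623), the lowest p of a member in that comparison, and DESeq2 gave an FDR of 0.00376, although the size of the change was below the 1.5 threshold. Leaving out any 1 library gave values between -1.07 and -0.82.

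The glucosyltransferase 6-like gene LOC102601174 differed by *AGPaseS-a* class, and also between H2 and L2. It was at 10.1 and 9.62 CPM in H1 and 11.2 and 10.6 in L1, but at 0.425 and 1.25 in H2 and 1.81 and 7.79 in L2. All 4 libraries of the high *AGPaseS-a* bulks lay above the 4 of the low ones. The log2FC was 2.38 ± 0.51 in high/low *AGPaseS-a* (FDR = 0.862 with edgeR, 0.00257 with DESeq2), and between 2.03 and 3.08 with any 1 library left out. Within the low *AGPaseS-a* bulks, the log2FC in H2/L2 was 2.53 ± 0.74 (FDR = 1.0), with L2 A at 1.81 and L2 B at 7.79 CPM, and was 1.13 without L2 B. For all members in high/low *AGPaseS-a*, 4 were higher and 6 lower at an unadjusted p under 0.05 (3.64% and 5.45%), against 1.46% and 1.68% of all genes. That count was 20 without H1 B, and 16 without both H1 A and H2 B.

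Anthocyanidin reductase makes epicatechin-type flavan-3-ols from anthocyanidins. ANR, the single member named after it, is annotated as anthocyanidin reductase-like (LOC102580754, NW_006239043.1, 827036 to 830183, minus strand). Whether it has this activity was not tested. The study followed this transcript by RT-qPCR with a primer pair shown here because it marks the transcript that was measured.
ANR forward: aacaaatgcactagcacaca
ANR reverse: cttgttggaggaacaacact

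ANR was at 1.59 and 0.280 CPM in H1, 6.33 and 13.3 in L1, 10.9 and 0.387 in H2, and 5.17 and 10.1 in L2. Counts were 20 and 6 in H1 and 202 and 389 in L1. Both H1 libraries and H2 B were low, and the other 5 libraries held at least 5.17 CPM. The log2FC was 3.47 ± 1.36 in H1/L1 (FDR = 0.789), with values from 2.63 to 5.12 when any 1 library was left out. In H2/L2 it was 0.43 ± 1.18 (FDR = 1.0), and it depended on single libraries, since it was -0.51 without H2 B and -0.13 without L2 B. The interaction was 3.04 ± 1.77 (FDR = 1.0), and it turned to -0.82 without H2 A, so a difference between the comparisons was not shown.

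The isoflavone reductase-like genes belong to a family of NADPH-dependent reductases named after the legume enzyme of isoflavonoid phytoalexins, and related reductases of other plants act on lignans. Of the 6 members, 4 are neighbours on NW_006238958.1. IRL, LOC102596717 (454613 to 457497, plus strand), was also followed by the study with RT-qPCR, using the primer pair below.
IRL forward: ttttgagatagagccatcgt
IRL reverse: cccgtctctgatgacatagt

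IRL was at 48.4 and 58.0 CPM in H1, 6.93 and 14.7 in L1, 7.02 and 5.03 in H2, and 20.3 and 10.9 in L2. H1 stood above all other libraries, and L2 stood above H2, so the starch comparisons pointed in opposite directions without overlap in either. The log2FC was -2.30 ± 0.45 in H1/L1 (FDR = 0.789) and 1.37 ± 0.44 in H2/L2 (FDR = 1.0), and the interaction was -3.67 ± 0.63 (FDR = 1.0 with edgeR and 0.00167 with DESeq2). The value in H2/L2 was 0.86 without L2 A and 1.15 without H2 B, in both cases with an unadjusted p above 0.05. The interaction lay between -4.31 and -3.15 with any 1 library left out and was -3.58 without both H1 A and H2 B. IRL had the lowest p of a member in H1/L1 and in the interaction. In high/low *AGPaseS-a* its log2FC was 1.30 ± 0.31 (FDR = 1.0).

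The neighbours of IRL did not all share this pattern. LOC102595721 (431048 to 433772) was at 13.1 and 21.5 CPM in H1, 2.88 and 6.37 in L1, 5.35 and 0.129 in H2, and 4.84 and 3.39 in L2, so that H1 was again highest. Its log2FC was -1.90 ± 1.10 in H1/L1 (FDR = 0.789) and 0.57 ± 1.08 in H2/L2, where H2 B held 3 counts and leaving it out gave -0.38. LOC102596062 (411599 to 413766) went the other way, with counts of 0 and 1 in H1 and 25 and 22 in L1. That ratio was 26.2 (95% exact interval 4.47 to 1050, counting error only), while H2 and L2 overlapped at 0.957 and 0.645 CPM against 1.56 and 0.849. The fourth gene, LOC102596386 (459182 to 460884), was at 0.0794 and 5.37 CPM in H1, 0.0314 and 0.890 in L1, 0.0354 and 0 in H2, and 0.796 and 0.697 in L2. Both H2 libraries together held 1 count and both L2 libraries 49, a ratio of 38.4 (95% exact interval 6.58 to 1550, counting error only), whereas H1 rested on H1 B alone, and without H1 B the log2FC in H1/L1 changed from -2.57 to 2.47. Its interaction of -7.56 ± 2.86 (FDR = 1.0) was the largest among members, but such a fitted value depends on the handling of counts near 0. The 4 genes carry the same annotation name, and if their sequences are close, counts of single genes are uncertain.

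**Figure D3:**
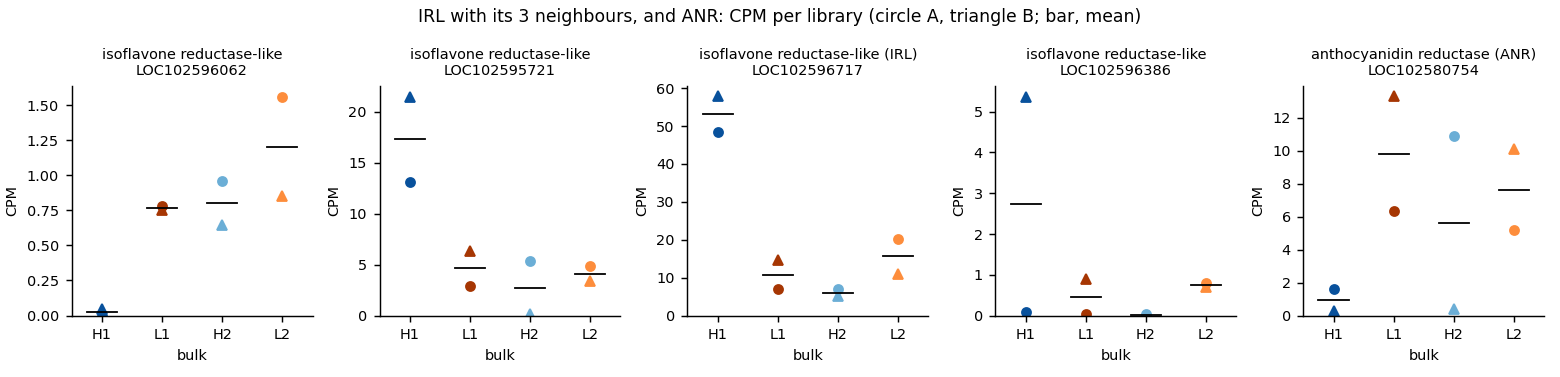
CPM of the 4 isoflavone reductase-like genes of 1 scaffold, in genome order, and of ANR, in each library (circles, replicate A; triangles, replicate B) of the 4 bulks. Black bars are means of 2 libraries and each vertical axis starts at 0. IRL lies at 48.4 and 58.0 CPM in H1 and at most 20.3 elsewhere, and ANR at most 1.59 in H1.

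Of the other isoflavone reductase-like members, LOC102590543 had most counts, at 104 and 88.9 CPM in H1, 61.8 and 107 in L1, 142 and 84.5 in H2, and 81.9 and 49.8 in L2, with a log2FC of -0.49 ± 0.28 in H/L. The isoflavone 2'-hydroxylase-like LOC102579822, a cytochrome P450, was at 11.3 and 10.9 CPM in H1, 2.76 and 2.94 in L1, 9.0 and 3.27 in H2, and 2.66 and 4.76 in L2. Its log2FC was -1.96 ± 0.54 in H1/L1 (FDR = 0.789) and -0.73 ± 0.53 in H2/L2, where leaving out H2 A turned it to 0.19. LOC102586757 (2-hydroxyisoflavanone dehydratase-like), with 80.8% of the CPM of its class, had a log2FC of -0.21 ± 0.29 in H/L. Its neighbour LOC107057656 was at 2.30 and 2.15 CPM in H1, 5.05 and 6.61 in L1, 4.93 and 10.1 in H2, and 3.34 and 3.42 in L2. The direction was opposite in the starch comparisons, with a log2FC of 1.39 ± 0.47 in H1/L1 (FDR = 0.789) and -1.15 ± 0.46 in H2/L2 (FDR = 1.0). The value in H2/L2 was -0.54 without H2 B, with an unadjusted p above 0.05.

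**Figure D4:**
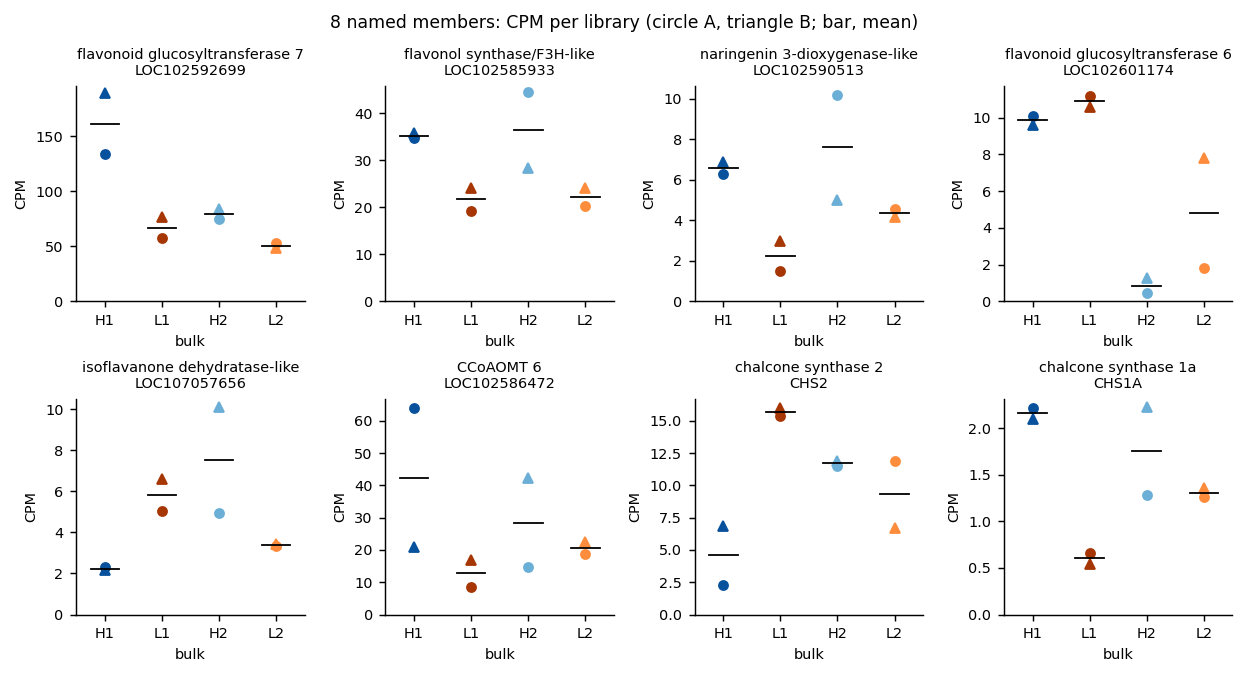
CPM of 8 members in each library (circles, replicate A; triangles, replicate B) of the 4 bulks, with black bars for the means of 2 libraries and vertical axes from 0. LOC102592699, LOC102585933 and LOC102590513 are lower in L1 than in H1 and in L2 than in H2, LOC102601174 is high in H1 and L1, *CHS2* has its lowest mean in H1, and LOC107057656 is higher in L1 than in H1 and lower in L2 than in H2.

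For 7 members (6.36%) the libraries did not overlap in H1/L1 or in H2/L2 and the directions were opposite, against 2.64% of all genes. In the interaction, 5 members were higher and 5 lower at an unadjusted p under 0.05 (4.55% each), against 0.839% and 0.736% of all genes. This count was 6 without L1 A, 6 without L2 B and 19 without both H1 A and H2 B.

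**Figure D5:**
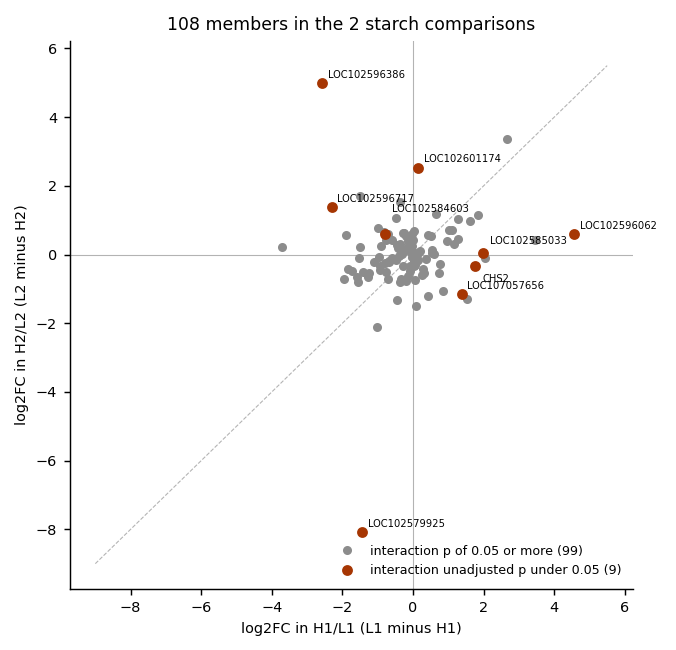
log2FC of 108 members in H1/L1 (horizontal) and in H2/L2 (vertical), with a dashed line where both are equal. Coloured points are the 9 of these members with an unadjusted p under 0.05 for the interaction, among them IRL (LOC102596717) at -2.30 and 1.37. LOC102579925 (-8.09 in H2/L2) and LOC102596386 (4.99 in H2/L2) rest on libraries with counts at or near 0.

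Genes of the pathway outside the members were counted from lists made by product name. Of 28 genes that supply phenylalanine through the shikimate pathway, 0 had an unadjusted p under 0.05 in H1/L1 or H2/L2, and the sums were 921 and 1391 CPM in H1, 1471 and 1509 in L1, 1454 and 994 in H2, and 1373 and 1317 in L2. Among 24 tested laccase, dirigent, pinoresinol and lariciresinol genes, 0 had such a p in either starch comparison. Of 13 tested P450 and amide transferase genes that hydroxylate or amidate hydroxycinnamates, 2 were lower and 0 higher in H1/L1, with a median log2FC of -0.43, and 0 differed in H2/L2. Of 13 tested genes named as MYB or anthocyanin regulators, a list that also holds 4 anthocyanin acyltransferases, 1 was higher and 2 lower in H1/L1, and 1 was lower in H2/L2. The P450 and regulator lists thus had 15.4% of their tested genes lower in H1/L1, which was 2 genes each, against 3.34% of all genes. The 1 regulator higher in H1/L1 was 7.69% of its list, against 2.39% of all genes. The 1 lower in H2/L2 was also 7.69%, against 1.32%. In H/L, 1 gene was lower in each of the shikimate (3.57%), laccase and lignan (4.17%) and P450 (7.69%) lists, and 2 were lower (15.4%) and 1 higher (7.69%) among the regulators, against 4.75% and 3.09% of all genes. The cinnamate glucosyltransferase-like LOC102593207, a member outside the named branches, was at 30.2 and 31.4 CPM in H1, 23.5 and 28.2 in L1, 25.8 and 17.2 in H2, and 36.1 and 30.5 in L2.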

How the data were processed

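The authors trimmed paired-end reads with Trimmomatic, aligned them with TopHat 2.0.9 and Bowtie 2.1.0 to SolTub_3.0, and counted reads per gene with HTSeq. The deposited table holds these raw counts for 8 libraries of 4 bulks, and 2 further columns that match no sample and were not used. The authors' comparison tables hold their own findings, which were not used: a fold change (ratio), its log2 value, p-values and FDR, and a score that is the standard error. The signal values in those deposited tables are counts that the authors divided by size factors, also not used. Only gene names, products and positions were taken from those deposited tables, and their 192484 repeated counts equalled the main table. DESeq is the package the authors name, with its settings not given in the sources used here.

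Counts were filtered with filterByExpr, scaled by TMM and fitted with 1 mean per bulk by edgeR 4.0.16 (R 4.3.3, glmQLFTest, Benjamini-Hochberg over 20389 genes). The standard error was taken as the log2FC over the square root of the F statistic. CPM used TMM-scaled totals. Alternatives were DESeq2 1.42.0, either unshrunken or under a normal prior, the 4 libraries of a comparison, RLE size factors, no filter, a filter of 50 counts, a replicate block and each library left out, H1 A and H2 B also together. Intervals and floors cover counting error only. The named genes were the member with most counts per enzyme class, up to 4 members per direction and comparison with an unadjusted p under 0.05 and no overlap, ANR and IRL with members within 50 kb, and the member with the largest interaction. Outside this rule, LOC102584603, LOC107057661, LOC102596891, LOC102602150, LOC102604843, LOC102595874 and LOC102577463 were chosen after their values were seen. Members, lists and this rule were chosen with earlier results of these data known. The procedure was tested on simulated data. RefSeq's table for SolTub_3.0 listed 105 of 110 members, 89 with the same span. The labels' letters A and B were not used to pair libraries. The 2 members of 1 enzyme class entered the counts and sums over all members, but their own values are not reported here.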

Additional observations from a re-analysis of the deposited data

Results flagged for a closer look

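For 3 members described here, the libraries separated in opposite directions in H1/L1 and H2/L2 and the interaction had an unadjusted p under 0.05, with edgeR's FDR at 1.0 for each. Separation in opposite directions alone held for 7 members (6.36%), against 2.64% of all genes. The share of all genes that met both criteria was not computed. The interaction was -3.67 ± 0.63 (SE) on the log2 scale for LOC102596717 (IRL), 2.54 ± 0.66 for LOC107057656 (2-hydroxyisoflavanone dehydratase-like) and -1.41 ± 0.44 for LOC102584603 (4CL 2). IRL and 4CL 2 were lower in L1 than in H1 and higher in L2 than in H2, and LOC107057656 the reverse. The difference in H2/L2 rested on single libraries for LOC107057656, at -0.54 without H2 B, and for IRL, at 0.86 without L2 A. 4CL 2 was not among the members at an unadjusted p under 0.05 in H2/L2, and its difference in H1/L1 was smaller without L1 A. The cause was not tested.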

How the results depend on the processing

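For 26 differences of genes that the naming rule chose for a comparison, all settings together gave 423 values, of which 356 kept direction and side of an unadjusted p of 0.05, 43 lost that p, 18 gained it and 6 changed direction. Of the 43, 33 came from leaving out 1 library (7 without L1 A) and 3 from the replicate block. The 6 fell on 3 differences. Other differences given in the text were not part of these 26, and their changes of sign stand beside them. LOC102580754 in H2/L2 ranged from -0.51 to 4.30 and LOC102595721 in H2/L2 from -0.38 to 4.96 when a library was left out, and without both H1 A and H2 B they were -0.51 and -0.38. LOC102596386 in H1/L1 ranged from -6.25 to 2.47. Counts of members at an unadjusted p under 0.05, with any 1 library left out, ranged from 8 to 21 in H1/L1, 2 to 12 in H2/L2, 9 to 23 in H/L, 6 to 14 in the interaction and 7 to 20 in high/low *AGPaseS-a*. Without both H1 A and H2 B they were 15 in H2/L2, 19 in the interaction and 16 in high/low *AGPaseS-a*. In H2/L2 the count was 10 with DESeq2, 10 with its normal prior and 10 without a filter. For counts at an unadjusted p under these other settings, the share of all genes was not computed. Members called numbered 1 in H1/L1, H2/L2, H/L and the interaction and 2 in high/low *AGPaseS-a* with DESeq2, and 1 in H1/L1 with its normal prior.

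Same-lettered libraries did not deviate together in every pair of bulks (correlations from -0.54 to 0.20). The lowest value was that of H1 with H2, where H1 A and H2 B, which stood apart, carry opposite letters. How the letters were given is not stated, so whether they pair the samples is not known. With the replicate block, the counts at an unadjusted p under 0.05 were 18, 4, 13, 8 and 10 in H1/L1, H2/L2, H/L, the interaction and high/low *AGPaseS-a*. With the letters of H2 exchanged, an alternative chosen after seeing the data, they were 23, 9, 18, 11 and 9. Members called were 0 under both blocks. The wide spread between the 2 libraries of a bulk (a biological coefficient of variation of 0.426) limits what could be detected.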
